A study of Mus musculus with 8 samples.

Results

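The extracellular matrix genes and their integrin receptors were followed in the left hippocampus with 81 probes for 73 genes, out of 16588 probes that had a value on all 8 arrays. Members were taken by gene symbol and comprised the collagens (Col), the laminins (Lama, Lamb, Lamc), the integrin α and β subunits (Itga, Itgb), the matrix metalloproteases (Mmp), their tissue inhibitors (Timp) and the Adamts proteases with the related Adamtsl proteins. The array annotation held 162 probes with such symbols, and 81 of them were blank on every array. By class there were 7 probes for fibrillar collagens, 4 for basement membrane collagens, 14 for other collagens, 7 for laminins, 12 for integrin α subunits, 5 for integrin β subunits, 9 for Mmp, 4 for Timp and 16 for Adamts and Adamtsl. The remaining 3 probes matched by name only. They read Col4a3bp, the ceramide transfer protein, and Itgbl1, an integrin β-like protein that is no integrin subunit.

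The study compared wild-type mice with homozygous knockouts of the T-type calcium channel Cav3.2, which Cacna1h encodes, before and after trace fear conditioning (TFC), a task in which a gap separates the tone from the foot shock. The groups were naive wild type (WNL), trained wild type (WTL), naive knockout (KNL) and trained knockout (KTL). The labels give all mice as male C57BL/6 of 6 to 8 weeks, the methods give C57BL/6J for the wild type and a C57/BL6 background for the knockout allele, which is carried in every cell, and trained mice were killed right after a test of context memory on the day after conditioning. Left hippocampi of 3 mice were pooled for RNA, and each group was read on 2 arrays. It is unclear if replicate arrays came from separate pools, so p-values measure only the spread between these arrays, which may be technical.

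The matrix of the brain is made of basement membranes around vessels and below the meninges, built from laminins and type IV collagen, and of a proteoglycan-rich matrix between the cells, part of which wraps neurons as perineuronal nets. Integrins are αβ heterodimers in the cell membrane that bind laminins, collagens and fibronectin and link them to the actin cytoskeleton. Metalloproteases of the Mmp and Adamts families cut these proteins, Timp proteins block them, and remodeling of the matrix around synapses is known to accompany learning in the hippocampus.

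Values are Cy5 intensities per probe and array on a linear scale, set to a floor of 100 and quantile normalized, and changes are differences of log2 intensity with the standard error (SE) of limma. A probe was called up- or down-regulated at a Benjamini-Hochberg adjusted p under 0.01 over all 16588 probes and a change of more than 2-fold. Means are geometric means of the 2 arrays. "Rose" and "fell" are also used for an adjusted p under 0.05 at any fold. Where both arrays of a group lay at the floor, a difference from that group is a lower bound, and the arrays of a group are written as KNL 1 and KNL 2. Intensities of different probes are not levels on a common scale. Brightness served to rank and bin probes and to sum markers, and not to compare the expression of different genes. Marker genes of a cell type are given as a summed intensity, which follows its brightest probes, and beside it as counts of probes that changed. In pooled tissue, fewer cells of a type and less RNA per cell cannot be told apart.

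Cacna1h, the targeted gene, read 2732 and 2985 in WNL, 2836 and 1838 in WTL, 1929 and 1377 in KNL, and 1171 and 1395 in KTL. Knockout arrays were thus lower than those of naive wild type, but KNL 1 lay above WTL 2. The change was -0.81 ± 0.25 (SE) in KNL vs WNL (limma, adjusted p = 0.0303) and -0.84 ± 0.25 in KTL vs WTL (adjusted p = 0.19), and neither was called. The position of the probe in the transcript is not given in the sources used here, so it may lie outside the deletion and checks the labels only in part. Replicate arrays correlated at r = 0.979 to 0.993 across all probes, and KNL stood apart, since a KNL array and an array of another group correlated at 0.852 to 0.938. Between 6.64% and 6.86% of all probes lay at the floor on an array. Of the 81 matrix and integrin probes, 6 (7.41%) did on each KNL array and 9 to 17 (11.1% to 21.0%) on the other arrays. The matrix and integrin probes were mostly dim, with 65 of 81 below the median probe. The 8 measured markers of hippocampal neurons summed to between 113513 and 130949 on the arrays, with none at the floor on all of them. This sum comes mostly from the bright probes of Snap25 and Syt1. Of the 10 neuron marker probes, 3 were called as down-regulated and 0 as up-regulated in KNL vs WNL (13.5% and 6.93% of all probes were), 5 fell and 1 rose at an adjusted p under 0.05, and the median change was -0.41. The part of this in the members' values was not tested.

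In naive knockouts most matrix and integrin probes read higher than in naive wild type, but few of them passed 2-fold. Called as up-regulated in KNL vs WNL were 6 probes, for Adamts5, Lamc3, Adamts15, Lama4, Col13a1 and Col17a1, and called as down-regulated were 4, for Adamts1, Itga8, Col1a2 and Mmp17. Among all probes 6.93% were called up-regulated, 13.5% down-regulated and 20.4% in either direction, so that 10 of 81 is below the background share. At an adjusted p under 0.05 with no fold threshold, 33 members rose and 12 fell, where the background was 34.3% up and 26.4% down. The median change of the members was 0.49, against 0.16 over all probes, and 58 members had a positive and 23 a negative change. With that median above 0, positive changes were also common over all probes, and their share was not counted. Both KNL arrays lay above the other 6 arrays for 37 members (37.5% of all probes did) and below them for 9 (26.9% of all probes).

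**Figure D1:**
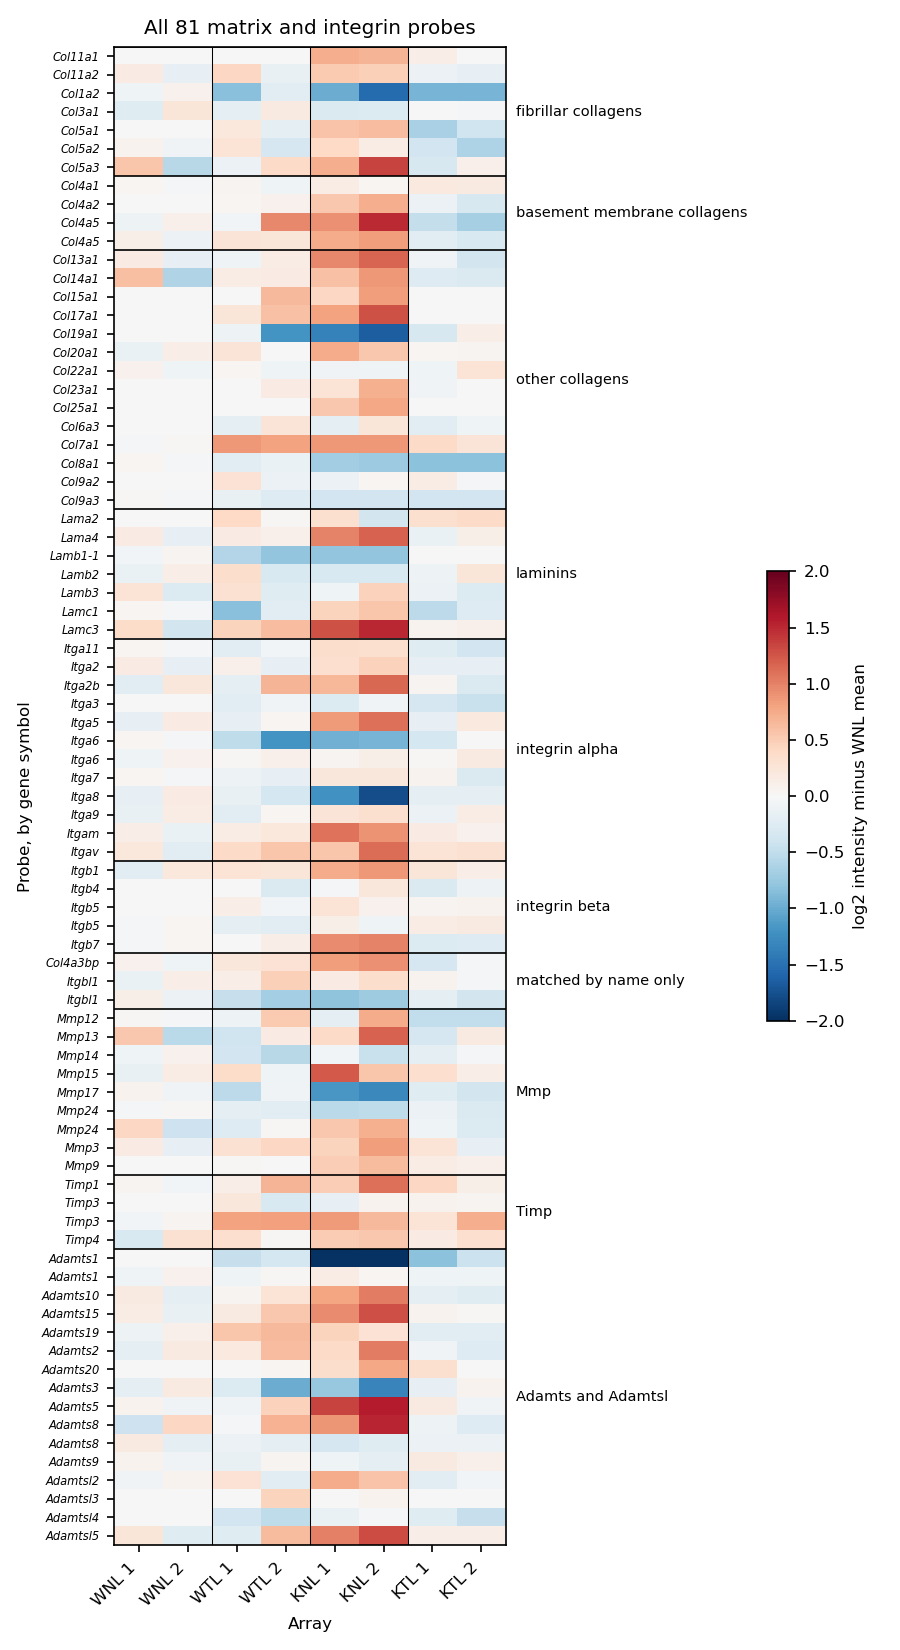
Each row is a matrix or integrin probe and each column an array, and the color gives log2 intensity minus the mean of the WNL arrays. The KNL columns are mostly red, with 37 of 81 probes above the other 6 arrays, and a few rows such as Adamts1, Itga8 and Col1a2 are blue there.

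Median changes differed with probe intensity in this comparison, and this holds for all probes. With the probes in 10 bins of intensity, the median change over all probes ran from 0.34 in the second lowest bin to 0.05 in the highest. The 16 members brighter than the median probe had a median change of 0.58, against 0.09 for all such probes, and the 65 dimmer ones had 0.40, against 0.25. The part of intensity in the members' shift was not tested.

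**Figure D2:**
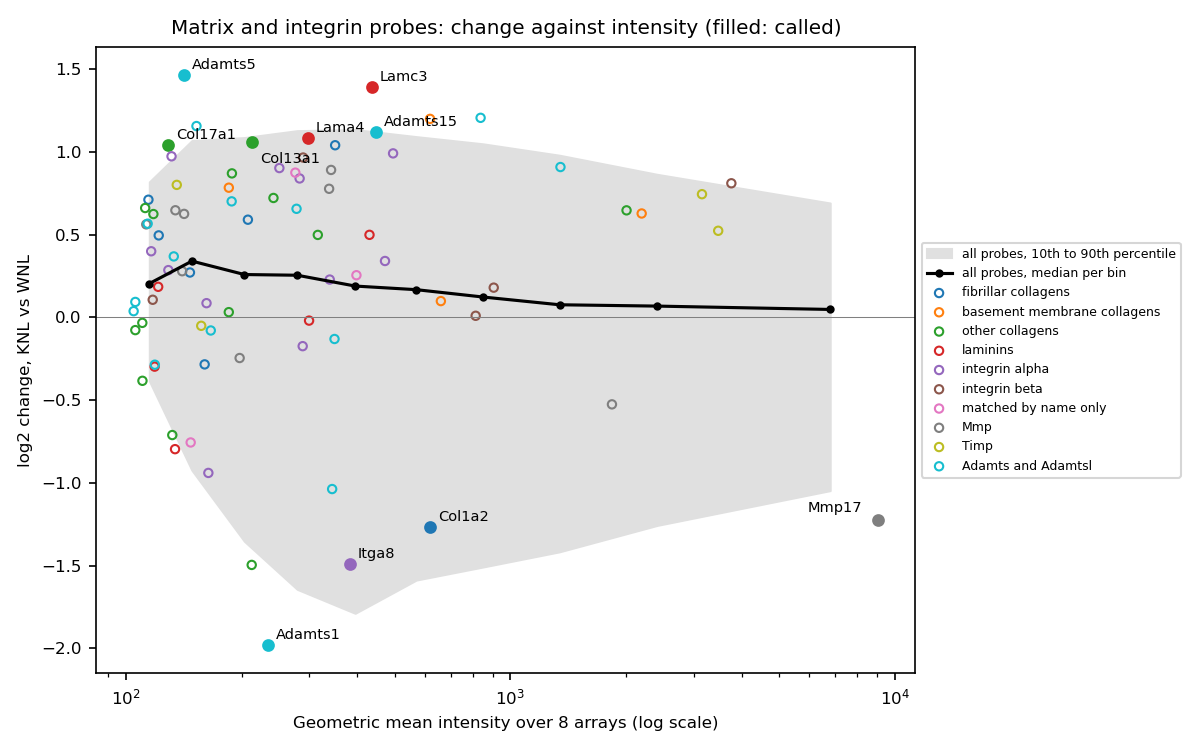
The log2 change in KNL vs WNL (y axis) is drawn against the geometric mean intensity over 8 arrays (x axis, log scale) for the 81 probes, colored by class and filled where called. The black line is the median of all probes in 10 intensity bins and the gray band runs from their 10th to their 90th percentile. Adamts5, Lamc3, Adamts1 and Mmp17 are among the probes outside the band.

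Among the fibrillar collagens, which form the tension-bearing fibers of connective tissue, Col1a2 was the called gene. It encodes a chain of type I collagen, and its probe (mMC021941) read 937 and 1054 in WNL, 556 and 848 in WTL, 498 and 343 in KNL, and 521 and 521 in KTL. All 4 knockout arrays lay below the 4 wild-type arrays, and training left the knockout low. The change was -1.27 ± 0.25 in KNL vs WNL (adjusted p = 0.00589) and 0.34 in KTL vs KNL (adjusted p = 0.276). Col5a3, a type V chain and the next brightest of the class, read 484 and 740.1 in KNL, next to 426 and 199 in WNL, and its change of 1.04 did not pass (adjusted p = 0.0618). The WNL arrays of Col5a3 lay far apart. Of the 7 probes of the class, 4 had both KNL arrays above all others (37.5% of all probes did) and 2 had both below (26.9%), and the class median was 0.49.

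Type IV collagen, the network of basement membranes, had a class median of 0.71 with none of its 4 probes called in KNL vs WNL (20.4% of all probes were). Col4a1, a main chain, read 591 to 655 on the wild-type arrays, 701 and 649 in KNL, and 723 and 709.8 in KTL. KNL overlapped the wild type, with a change of 0.10 (adjusted p = 0.445). Col4a2, the partner of Col4a1, had means of 2027 in WNL, 2108 in WTL, 3131 in KNL and 1742 in KTL, and rose by 0.63 ± 0.12 in KNL vs WNL (adjusted p = 0.00501), short of 2-fold. For Col4a5, a chain that forms a distinct type IV network with Col4a3 and Col4a4 and was named after its values were seen, the brighter probe had a change of 1.20 ± 0.35 (adjusted p = 0.0237) and the dimmer one of 0.78 ± 0.12 (adjusted p = 0.00237). The brighter Col4a5 probe varied within groups, with 495 and 999 in WTL and 963 and 1436 in KNL.

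Of the 14 other collagens, 2 were up- and 0 down-regulated (6.93% and 13.5% of all probes were), and both were transmembrane collagens. Col13a1 (probe mMC023475), which in muscle sits at the neuromuscular junction, read 205 and 163 in WNL, 173 and 203 in WTL, 354 and 407 in KNL, and 174 and 141 in KTL. Its KNL arrays lay well above the other 6, which overlapped. The change was 1.06 ± 0.18 (adjusted p = 0.00337). Col17a1 (probe mMC014666), known from the hemidesmosomes of skin, was at the floor of 100 on both WNL and both KTL arrays and read 118 and 149.7 in WTL and 175 and 241 in KNL. It was thus seen in WTL and KNL only, at values close to the floor, and was at least 2.06-fold higher in KNL than in WNL (adjusted p = 0.00393). Col23a1 and Col25a1, also transmembrane collagens, rose short of 2-fold, by 0.50 (adjusted p = 0.0333) and 0.66 (adjusted p = 0.00358). Col25a1, named after its values were seen, was above the floor in KNL alone, at 145 and 172. Col20a1, the brightest of the other collagens, rose by 0.65 ± 0.15 (adjusted p = 0.0101).

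Some other collagens were lower in naive knockouts, and these were singled out after their values were seen. Col8a1, a short-chain collagen, read 183 and 172 in WNL, 154 and 161 in WTL, 109 and 107 in KNL, and 100 and 100 in KTL. Col9a3, a chain of a collagen that sits on the surface of fibrils, read 132 and 129 in WNL, 118 and 109 in WTL, and was at the floor on all 4 knockout arrays. In both, as in Col1a2, knockout arrays of either training state lay below all wild-type arrays. In KNL vs WNL, Col8a1 fell by 0.71 (adjusted p = 0.00163) and Col9a3 by 0.38 (adjusted p = 0.0149). Col19a1 had a change of -1.50 with an adjusted p of 0.0114, just short of the threshold, and its WTL arrays of 292 and 137 differed by more than 2-fold. Ttr (transthyretin), the brightest marker of the choroid plexus, was also low in the knockout arrays, and fell by 2.07 ± 0.16 in KNL vs WNL (adjusted p = 0.000257). The 8 measured markers of the choroid plexus summed to 53777 and 54983 in WNL, 40319 and 42635 in WTL, 14263 and 18016 in KNL, and 19814 and 20695 in KTL, most of it from Ttr. The other markers were mixed in KNL vs WNL. Of the 9 choroid plexus probes 1, that of Ttr, was called there (13.5% of all probes were down- and 6.93% up-regulated). At an adjusted p under 0.05, 3 fell and 2 rose (26.4% and 34.3% of all probes), and the median change was -0.32. A probe of Cldn2, named after its values were seen, rose by 0.72 (adjusted p = 0.0238). In KTL vs WNL 2 were down-regulated (0.0422% of all probes were called), 5 fell and 0 rose, and the median was -1.43. In KTL vs WTL 1 was down-regulated (0.0241% of all probes were called), 4 fell and 0 rose, and the median was -1.03. The part of the choroid plexus markers in the values of Col1a2, Col8a1 and Col9a3 was not tested.

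Laminins, the αβγ trimers that cells hold on to in basement membranes, had 2 of 7 probes called as up-regulated and 0 as down-regulated. Over all probes these shares were 6.93% and 13.5%. Lamc3 (probe mMC007916), the γ3 chain, read 396 and 239 in WNL, 420.1 and 470.5 in WTL, 740.1 and 879 in KNL, and 322 and 331 in KTL. The KNL arrays lay above all others, while WNL and KTL overlapped. Its change was 1.39 ± 0.24 (adjusted p = 0.00359). Lama4 (probe mMC017185), the α4 chain of vascular basement membranes, read 271 and 214 in WNL, 271 and 259 in WTL, 478 and 543 in KNL, and 220.2 and 261 in KTL. The 3 groups other than KNL overlapped, and the change was 1.08 ± 0.16 (adjusted p = 0.00205). Lamc1, the γ1 chain shared by most laminins, had means of 462 in WNL and 653 in KNL, a change of 0.50 that did not pass (adjusted p = 0.0783). Lamb1-1, the β1 chain, which was named after its values were seen, fell by at least 0.80 to the floor on both KNL arrays (adjusted p = 0.00188), from 167 and 181 in WNL. The class median of 0.18 was close to that of all probes.

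**Figure D3:**
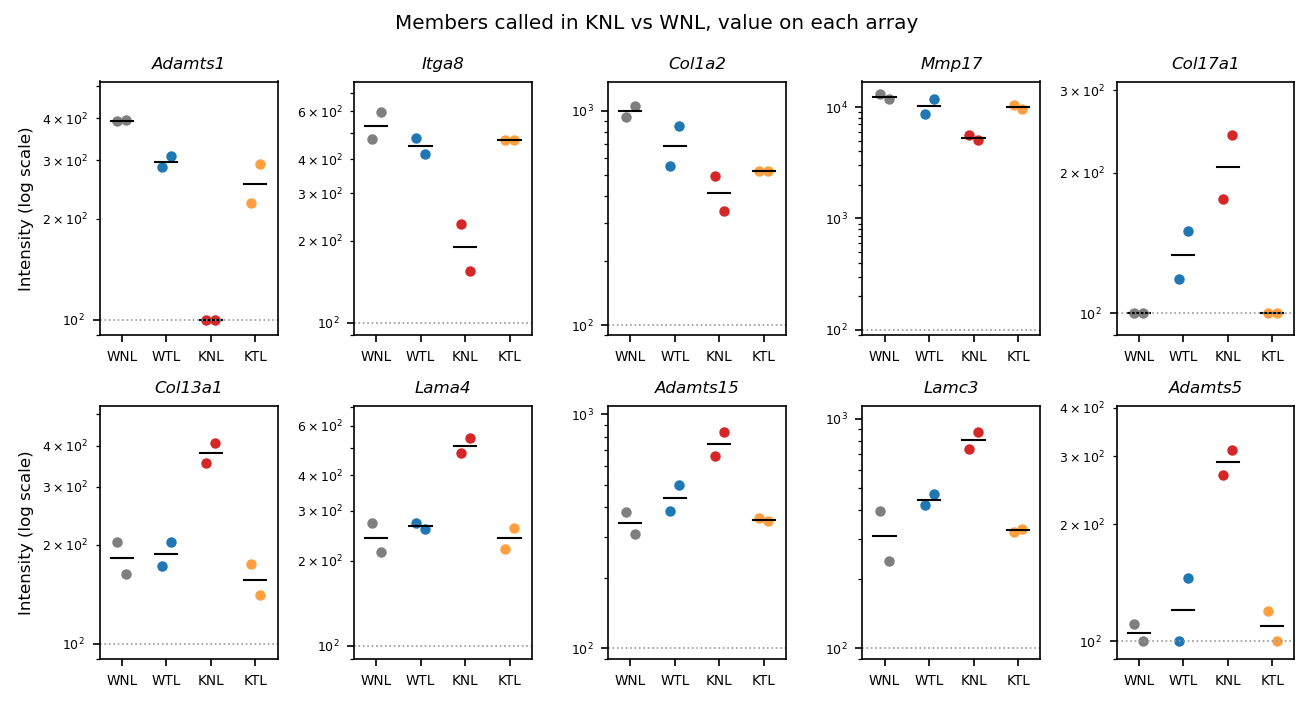
Intensity (log scale) on each of the 2 arrays per group for the 10 probes called in KNL vs WNL, with a bar at the geometric mean and a dotted line at the floor of 100. KNL stands apart in 9 panels, in Adamts1 with both arrays at 100, while in Col1a2 KTL remains low at 521 on both arrays.

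Of the integrins, Itga8 (probe mMC002018) was called. Its product pairs with the β1 subunit and binds fibronectin and nephronectin. It read 475 and 595 in WNL, 480.4 and 418 in WTL, 230.3 and 155 in KNL, and 470.5 and 472 in KTL. The KNL arrays were the lowest, and the other 3 groups overlapped or nearly so. The change was -1.49 ± 0.21 (adjusted p = 0.00189).

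Most other integrins were higher in KNL, below the fold threshold. Itgb1, the β subunit shared by many integrins and the brightest integrin probe, read 2611 and 3512 in WNL, 3648 and 3563 in WTL, 5086 and 5539 in KNL, and 3590 and 3322 in KTL. Its KNL arrays were the highest, and it rose by 0.81 ± 0.16 (adjusted p = 0.0056). Itgam (CD11b), the complement receptor subunit of microglia and other myeloid cells, rose by 0.99 ± 0.13 (adjusted p = 0.00151), from a mean of 395 in WNL to 785 in KNL. The 10 measured markers of microglia and macrophages summed to 10845 and 11221 in WNL and 9176 and 10364 in KNL. Of their 10 probes 3 were called as down-regulated and 0 as up-regulated (13.5% and 6.93% of all probes were). At an adjusted p under 0.05, 6 fell and 1 rose (26.4% and 34.3% of all probes). Of the 3 measured blood cell probes 2 were up- and 0 down-regulated in KNL vs WNL, with a median change of 1.05. In KTL vs KNL 2 were down- and 0 up-regulated (7.50% and 12.6% of all probes were), with a median of -1.10. The part of these markers in the values of the integrins was not tested. Itgb7, a subunit of leukocyte integrins, rose by 0.97 ± 0.10 (adjusted p = 0.000715), and Itga5, the α subunit of the fibronectin receptor, by 0.97 (adjusted p = 0.00523). Itgam, Itgb7 and Itga5 lay just short of 2-fold, and Itgb7 and Itga5 were named for that after their values were seen. A probe of Itga6, named in the same way, fell by 0.94 (adjusted p = 0.015), also short of 2-fold. The other Itga6 probe had a change of 0.09 (adjusted p = 0.526). Both probes of Itgb5, a partner of Itgav, lay near the wild-type values, with changes of 0.18 and 0.01. Itga11, a collagen receptor subunit, rose by 0.34 (adjusted p = 0.0361). Both KNL arrays lay above the other 6 for 7 of 12 integrin α probes, with a class median of 0.31, and for 2 of 5 integrin β probes, with a class median of 0.18. Over all probes this share was 37.5% and the median 0.16, so the integrin β class was near the background on both.

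Among the matrix metalloproteases, Mmp17 (probe mMC025877) was the called gene and the brightest probe. It encodes a protease held to the membrane by a lipid anchor. Its values were 13071 and 11807 in WNL, 8652 and 11880.3 in WTL, 5565 and 5088 in KNL, and 10546 and 9598 in KTL. The KNL arrays lay below the other 6, which overlapped, and the change was -1.22 ± 0.17 (adjusted p = 0.00176). Mmp24, a membrane protease of neurons, also fell on its brighter probe, by 0.53 ± 0.10 (adjusted p = 0.00574), from a mean of 2161 to 1501. Its dimmer probe had a change of 0.62 that did not pass (adjusted p = 0.0861), so the 2 probes of Mmp24 disagree in sign. The gelatinase Mmp9, also named after its values were seen, was at the floor on both WNL arrays, read 140.4 and 155 in KNL, and rose by 0.56 (adjusted p = 0.00414). The class median over 9 probes was 0.56.

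None of the 4 Timp probes was called in KNL vs WNL (20.4% of all probes were), and the class median was 0.63. The brighter probe of Timp3, an inhibitor that stays bound to the matrix, read 2127 and 2292 in WNL, 3874 and 3883 in WTL, 3969 and 3445 in KNL, and 2673 and 3654 in KTL. On this probe naive wild type was the lowest group, and trained wild type and naive knockout overlapped. Timp3 rose by 0.74 ± 0.17 in KNL vs WNL (adjusted p = 0.00983) on this probe and had a change of -0.05 on its dimmer one (adjusted p = 0.824). Timp4 had means of 2945 in WNL, 3342 in WTL, 4232 in KNL and 3505 in KTL, a change of 0.52 that did not pass (adjusted p = 0.0722). Timp1, a secreted inhibitor named after its values were seen, read 110 and 101 in WNL, 115 and 168 in WTL, 148 and 226 in KNL, and 139.9 and 114 in KTL. Its KNL mean was the highest, though KNL overlapped WTL, and it rose by 0.80 ± 0.26 (adjusted p = 0.0353).

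The Adamts family held the largest fall and the largest rise among the members. Adamts1 (probe mMC004302), which cuts aggrecan and versican, read 392 and 397 in WNL, 287 and 308 in WTL, 100 and 100 in KNL, and 223 and 292 in KTL. Both KNL arrays were at the floor, and KTL overlapped WTL. Adamts1 was at least 3.94-fold lower in KNL than in WNL (adjusted p = 0.000228). A further Adamts1 probe lay between 100 and 118 on all arrays and gave no sign of this (change 0.09, adjusted p = 0.49). Adamts5 (probe mMC003528), another aggrecanase, read 111 and 100 in WNL, 100 and 145 in WTL, 269 and 312 in KNL, and 119 and 100 in KTL. It was near the floor in every group except KNL, with a change of 1.46 ± 0.20 (adjusted p = 0.00174). Adamts15 (probe mMC003736), an aggrecanase as well, read 382 and 309 in WNL, 387 and 499.8 in WTL, 662 and 838 in KNL, and 359 and 349.6 in KTL, with a change of 1.12 ± 0.19 (adjusted p = 0.00335). Of these aggrecanases, Adamts1 thus fell in KNL while Adamts5 and Adamts15 rose. Adamts10, which acts on fibrillin microfibrils, rose by 0.91 ± 0.16 (adjusted p = 0.00416), short of 2-fold. The brighter Adamts8 probe had a change of 1.21 ± 0.37 with WNL arrays of 497 and 882 (adjusted p = 0.0288), and the dimmer one of -0.29. The median over the 16 Adamts and Adamtsl probes was 0.47.

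The stretches just upstream of the gene start are shown for the 5 of the 10 called genes that the RefSeq promoter table used here (build GRCm38.p6) holds, to let the genes that fell (Adamts1, Col1a2, Itga8) be set beside those that rose (Col13a1, Col17a1). Each stretch has 180 bases, is written 5′ to 3′ on the strand of the gene and ends at the base before the start. Capitals mark matches, on either strand, of the CCAAT box (CCAAT), the GC box (GGGCGG), the TATA box (TATAAA), the AP-1 site (TGANTCA), the cAMP response element (TGACGTCA) and the E-box (CACGTG). The stretches lie at chr16:85803114-85803293 (minus strand, Adamts1), chr6:4505438-4505617 (plus strand, Col1a2), chr2:12301945-12302124 (minus strand, Itga8), chr10:61979109-61979288 (minus strand, Col13a1) and chr19:47692043-47692222 (minus strand, Col17a1).
Adamts1: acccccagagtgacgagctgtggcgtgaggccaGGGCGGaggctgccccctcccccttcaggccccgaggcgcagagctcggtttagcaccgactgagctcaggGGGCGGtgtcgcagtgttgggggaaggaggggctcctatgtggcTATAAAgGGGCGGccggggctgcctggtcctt
Col1a2: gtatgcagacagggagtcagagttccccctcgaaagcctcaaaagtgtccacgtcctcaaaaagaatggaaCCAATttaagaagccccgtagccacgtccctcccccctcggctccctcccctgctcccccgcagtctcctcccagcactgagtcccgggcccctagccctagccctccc
Itga8: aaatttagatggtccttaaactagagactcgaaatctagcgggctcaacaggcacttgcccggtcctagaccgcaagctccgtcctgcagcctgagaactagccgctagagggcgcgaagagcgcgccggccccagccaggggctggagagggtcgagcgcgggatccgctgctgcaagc
Col13a1: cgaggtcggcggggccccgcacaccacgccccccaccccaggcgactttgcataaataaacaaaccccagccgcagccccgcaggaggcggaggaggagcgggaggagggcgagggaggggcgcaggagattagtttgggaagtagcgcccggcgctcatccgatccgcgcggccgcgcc
Col17a1: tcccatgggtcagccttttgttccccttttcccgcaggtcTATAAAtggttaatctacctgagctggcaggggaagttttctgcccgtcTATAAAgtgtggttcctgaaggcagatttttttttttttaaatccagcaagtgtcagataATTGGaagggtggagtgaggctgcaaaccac
Adamts1 held GC boxes and a TATA box, Col1a2 a CCAAT box, Col17a1 TATA boxes and a CCAAT box, and Itga8 and Col13a1 none of these letters in the stretch shown. Over 250 bases upstream, a GC box was found in 59.3% of the 59 promoters of 56 member genes, against 32.7% of all 32851 promoters and 42.6% of those of coding genes. A CCAAT box was found in 25.4% of the members' promoters and 33.8% of all, a TATA box in 13.6% and 12.4%, and an AP-1 site in 5.08% and 6.75%. The cAMP response element and the E-box were found in none of the 59, against 1.55% and 6.02% of all. These matches describe letters only.

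The calls in KNL vs WNL rested on few arrays. Adamts1 was called whichever array was left out, with adjusted p from 0.000643 to 0.00506, and the other 9 calls were each lost without some array. Without KNL 2, which left Adamts1 as the called member, the adjusted p of the up-regulated genes was 0.0212 for Adamts5, 0.0295 for Adamts15, 0.038 for Lamc3, 0.0209 for Lama4 and 0.0325 for Col13a1. Col17a1 reached its highest adjusted p of 0.0253 without WNL 2. Of the down-regulated genes, Itga8 reached 0.0157 without WNL 2, Mmp17 0.0202 and Col1a2 0.0465 without KNL 2. Calls were also lost without WNL 2 for all but Adamts1 and Lamc3, without WNL 1 for Adamts5, Adamts15, Col17a1, Col1a2 and Mmp17, without KNL 1 for all but Adamts1, Itga8 and Col17a1, and without either KTL array for Adamts15, Lamc3, Col17a1 and Col1a2. With a lone array its spread is taken to be that of the other groups. With cyclic loess in place of quantile normalization, 3 members were up-regulated and 6 down-regulated, against 6 and 4, and the members' median was 0.30.

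Genes of the wider matrix pathway, from lists chosen with earlier results known, included larger changes than most members. The counts below stand next to 6.93% up- and 13.5% down-regulated of all probes. Among 31 probes for basement membrane and other matrix glycoproteins, 1 was up- and 2 down-regulated. Agrn (agrin, which clusters receptors at synapses of nerve and muscle) fell by 2.50 ± 0.16 and Sparcl1 (an astrocyte protein that promotes synapse formation) by 1.90 ± 0.15, while Ecm1 rose by 1.19 ± 0.21. Among 39 probes for perineuronal net proteins and proteoglycans, 1 was up- and 4 were down-regulated. Dcn (decorin) was down-regulated on 2 of its 3 probes, by 1.45 and at least 1.13, and Reln (reelin) rose by 1.25 on its dimmer probe and had a change of -0.20 on its brighter one (adjusted p = 0.169). Collagen folding and crosslinking had 2 of 24 probes up- and 1 down-regulated, with Pcolce2, a helper of procollagen processing, down by at least 1.45.

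Downstream of the integrins, 2 of 36 probes for focal adhesion proteins were up- and 3 down-regulated. The adapter Crk fell by 2.41 ± 0.09 on its brighter probe, while its dimmer one had a change of 0.24 (adjusted p = 0.0723). Vinculin (Vcl) fell by 2.04 ± 0.23 and focal adhesion kinase (Ptk2) by 1.64 ± 0.18. The actin regulator Vasp rose by 1.27 ± 0.12 on its dimmer probe and had a change of -0.08 on its brighter one (adjusted p = 0.539). Of 16 probes for other matrix receptors 2 were up- and 3 down-regulated, with Dag1, the dystroglycan receptor of laminin and agrin, down by 2.21 ± 0.26 on its brighter probe, the proteoglycan receptor Ptprs down by 2.42 ± 0.20, and the collagen receptor Ddr2 up by 1.37 ± 0.14. Of 22 probes for other metalloproteases and protease inhibitors, 2 were up- and 8 down-regulated, led by neuroserpin (Serpini1), which fell by 3.32 ± 0.21. The down-regulated share was above that of all probes for these proteases and inhibitors and for the other receptors, and below it for the remaining 4 lists, with no test of these shares. The median changes were 0.48 for the glycoproteins, -0.04 for the perineuronal net, 0.25 for collagen folding, 0.16 for integrin signaling, 0.02 for other receptors and -0.22 for other proteases and inhibitors, next to 0.49 for the members.

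Markers of vascular and meningeal cells, which make much of the brain's collagen and laminin, moved in mixed ways between WNL and KNL. Over all probes 6.93% were up- and 13.5% down-regulated, 34.3% rose and 26.4% fell at an adjusted p under 0.05, and the median change was 0.16. The 7 measured markers of endothelium summed to 3607 and 4066 in WNL and 5252 and 5260 in KNL, yet 2 of them were at the floor on both KNL arrays. Of 8 endothelial probes 1 was up- and 1 down-regulated, 5 rose and 2 fell at an adjusted p under 0.05, and the median change was 0.52. The 7 measured markers of mural cells summed to 3515 and 3526 in WNL and 5849 and 6543 in KNL, with 2 at the floor on both KNL arrays. Of 9 mural probes 1 was up- and 2 were down-regulated, 3 rose and 2 fell at an adjusted p under 0.05, and the median change was 0. The 11 measured markers of meningeal and perivascular fibroblasts summed to 55952 and 57971 in WNL and 68012 and 70138 in KNL, mostly through Ptgds. Of their 14 probes 0 were up- and 2, both of Dcn, down-regulated, 5 rose and 5 fell at an adjusted p under 0.05, and the median change was 0.03. After training, the KTL sums were 3404 and 3733, 3500 and 3685, and 48341 and 50669, for endothelium, mural cells and fibroblasts. In the same order, the median changes in KTL vs KNL were -0.64, 0 and -0.51, against -0.09 over all probes. The part of these markers in the members' values was not tested.

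**Figure D4:**
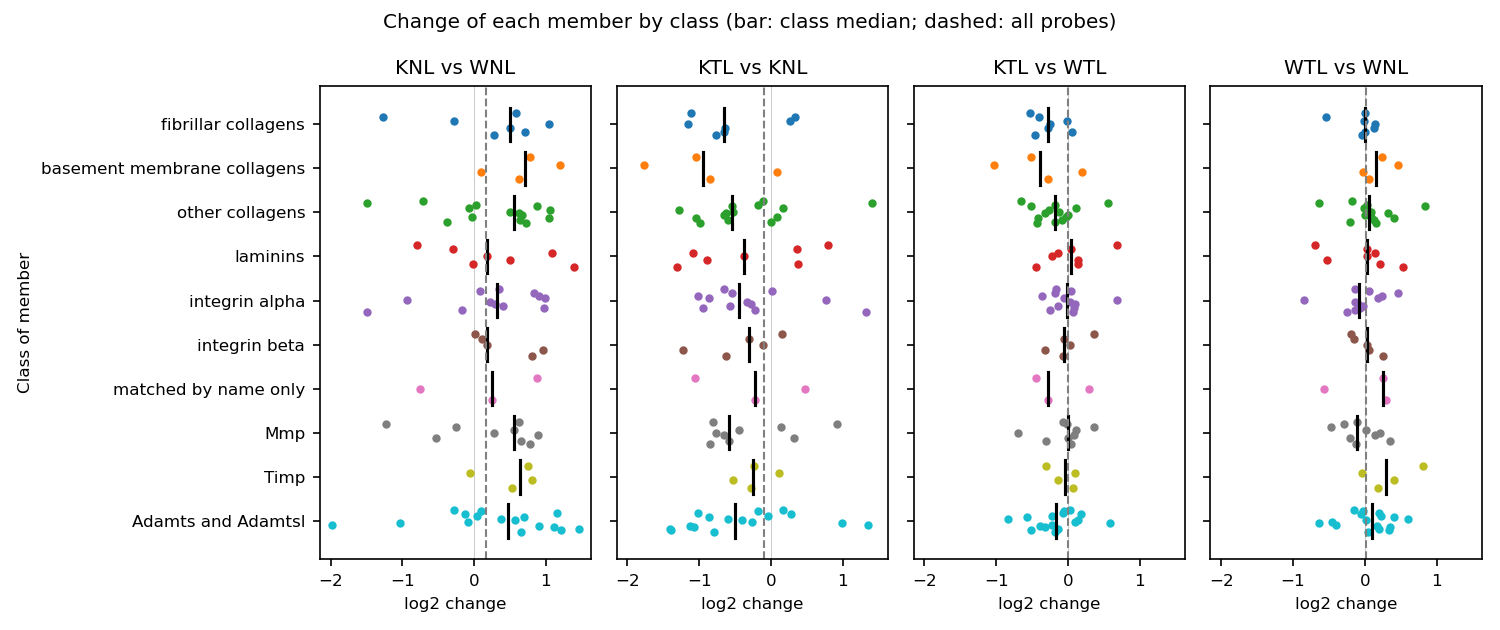
Each point is the log2 change of a matrix or integrin probe (x axis) by class (y axis), with 1 panel per comparison, a black bar at the class median and a dashed line at the median of all probes. Class medians lie between 0.18 and 0.71 in KNL vs WNL and below 0 in KTL vs KNL, between -0.39 and 0.04 in KTL vs WTL and between -0.11 and 0.29 in WTL vs WNL.

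Trained knockouts differed from naive knockouts mostly by lower values. In KTL vs KNL, 12 member probes were down- and 2 up-regulated, where 7.50% of all probes were down-, 12.6% up-regulated and 20.1% called in either direction. At an adjusted p under 0.05 with no fold threshold, 37 members fell and 9 rose (32.6% and 27.3% of all probes). The median change was -0.54, against -0.09 over all probes. This comparison shares the KNL arrays with KNL vs WNL, so that members high or low in KNL enter both with opposite signs.

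Up-regulated after training were Adamts1 and Itga8, both called as down-regulated in KNL vs WNL. Adamts1 was at least 2.55-fold higher in KTL than in KNL (adjusted p = 0.000857), and Itga8 had a change of 1.32 (adjusted p = 0.00317). Down-regulated were the 6 genes that were up-regulated in KNL vs WNL, with changes of -1.41 for Adamts5, -1.30 for Lamc3, -1.28 for Col13a1, -1.09 for Lama4, -1.07 for Adamts15 and at least -1.04 for Col17a1. Mmp17 rose by 0.92 (adjusted p = 0.00512), short of 2-fold, and Col1a2 did not pass.

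The comparison also held genes not called in KNL vs WNL, and those outside the naming rule were singled out for being called here. Itgb7 (probe mMC014712) read 248 and 259 in WNL, 251 and 278 in WTL, 485 and 504 in KNL, and 210.1 and 212 in KTL. KTL was below all wild-type arrays and KNL above them, and the change was -1.23 (adjusted p = 0.000421). Both Col4a5 probes fell, by 1.77 (adjusted p = 0.00622) and 1.05 (adjusted p = 0.00105). The brighter one read 369 and 322 in KTL, below all other arrays. Col5a1, a type V chain that sets the width of type I fibrils, read 304 and 313 in KNL and 131 and 155 in KTL and fell by 1.11 (adjusted p = 0.00223), again with KTL below the 4 wild-type arrays. Adamts10 fell by 1.12 (adjusted p = 0.00222) from 2013 and 2367 in KNL to 1019 and 985 in KTL, which lay just below the wild-type values of 1028 to 1409. Col4a3bp, matched by name only, fell by 1.06 (adjusted p = 0.00152).

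The calls in KTL vs KNL depended on single arrays as well. Itgb7 was called whichever array was left out. Adamts1 was lost without KNL 2 alone (adjusted p = 0.0119), and without KNL 2 Itgb7 was the called member. The other calls were each lost without an array of KNL or KTL, Itga8 with an adjusted p of up to 0.0283 without KTL 2 and Lamc3 of up to 0.0478 without KNL 2. For Adamts5, Adamts10, Adamts15, Col13a1, Col17a1, Col4a3bp and Lama4 the highest adjusted p was between 0.0168 and 0.036, each without KNL 2 or KTL 2. Of the 8 fits without an array, 4 called Col5a1, and 2 and 5 called the brighter and the dimmer Col4a5 probe. With cyclic loess 3 members were up- and 8 down-regulated.

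**Figure D5:**
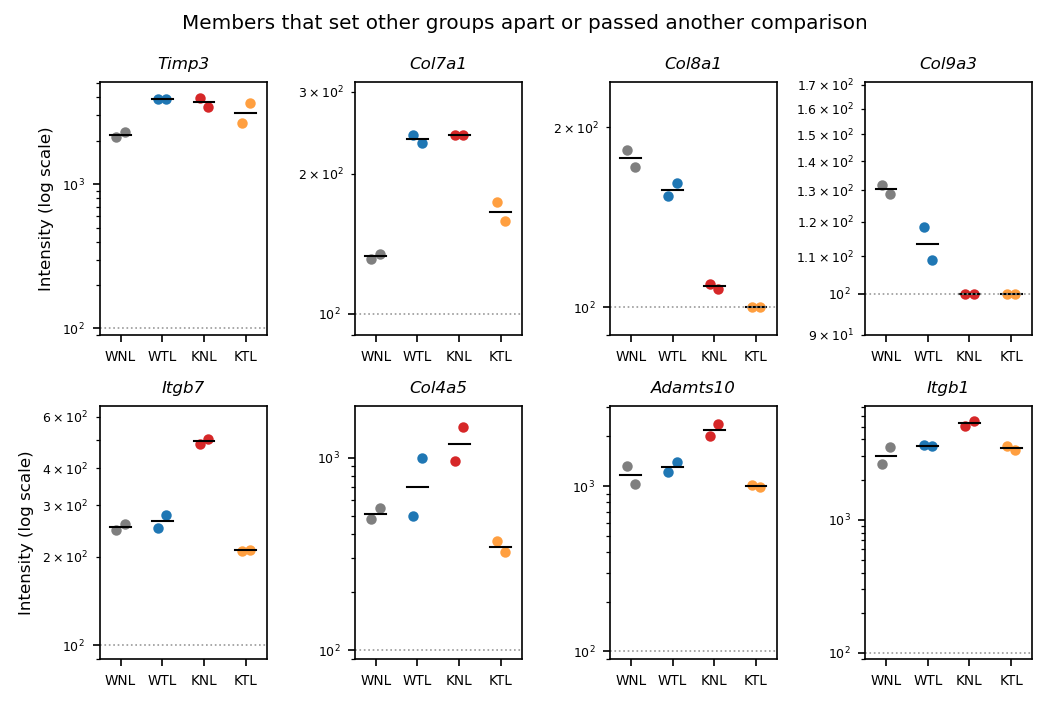
Intensity (log scale) on each of the 2 arrays per group for 8 members that were not called in KNL vs WNL, with a bar at the geometric mean and a dotted line at the floor of 100. WNL is lowest for Timp3 and Col7a1, both knockout groups are lowest for Col8a1 and Col9a3, and KTL is lowest for Itgb7, Col4a5 and Adamts10.

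Trained knockouts and trained wild types differed little. No member was called in KTL vs WTL (limma 0 and SAM 0, with 0.0241% of all probes called by limma), and 11 had an unadjusted p under 0.05, next to 17.5% of all probes. The median change was -0.12, against 0 over all probes, with 51 members negative and 29 positive. Both KTL arrays lay within the range of the 4 wild-type arrays for 46 members (49.4% of all probes), below that range for 14 (8.72%) and above it for 4 (13.2%). Of the 25 collagen probes, 20 had a negative and 4 a positive change, and 8 lay below that range and 1 above it. The largest change, singled out after its values were seen, was -1.03 for the brighter Col4a5 probe (adjusted p = 0.219). Its WTL arrays read 495 and 999, and the dimmer Col4a5 probe had a change of -0.51 (adjusted p = 0.134). The members nearest the threshold, named after their values were seen, were Adamts19 with a change of -0.83 (adjusted p = 0.0576), Col8a1 with -0.65 (adjusted p = 0.0642), Lamb1-1 with 0.68 (adjusted p = 0.0798) and Col7a1 with -0.52 (adjusted p = 0.099). Adamts19 read 172 and 183 in WTL and was at the floor on both KTL arrays, so its change is a lower bound. With a floor of 50 Adamts19 and Col8a1 were called as down-regulated, and with no floor Col8a1 and Col9a3.

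In KTL vs WNL no member was called either (limma 0 and SAM 0, with 0.0422% of all probes called by limma), and 11 had an unadjusted p under 0.05, next to 11.5% of all probes. Col8a1 came nearest, with both KTL arrays at the floor and a change of -0.83 (adjusted p = 0.0545). Adamts1 had a change of -0.63 (adjusted p = 0.205) and Col1a2 of -0.93 (adjusted p = 0.252). With a floor of 50, and with no floor, Col8a1 and Col9a3 were called as down-regulated.

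Training of wild types gave no called member in WTL vs WNL (limma 0 and SAM 0, with 0% of all probes called by limma), and 10 members had an unadjusted p under 0.05, next to 15.1% of all probes. Both WTL arrays lay above both WNL arrays for 17 members (20.4% of all probes) and below them for 17 (20.7%). Col7a1, the collagen of anchoring fibrils in skin, read 131 and 134 in WNL, 242 and 233 in WTL, 243 and 242 in KNL, and 173 and 158 in KTL. The 2 arrays of each group lay close together, and WTL and KNL had about the same values. Its change was 0.84 (adjusted p = 0.131), that of Timp3 0.81 on the brighter probe (adjusted p = 0.184), that of Adamts19 0.60 (adjusted p = 0.181), that of Lamb1-1 -0.69 (adjusted p = 0.168) and that of Itga6, a laminin receptor subunit, -0.85 (adjusted p = 0.223). These genes were named after their values were seen, and none passed the test.

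The effect of training was set against genotype in an interaction test, the change in KTL vs KNL minus that in WTL vs WNL. It called 20 members, 6 positive and 14 negative, where 21.8% of all probes were called, 13.3% positive and 8.46% negative. The median was -0.53, against -0.10 over all probes. The interaction also shares the KNL arrays with KNL vs WNL, so that members high or low in KNL enter both with opposite signs. Positive were Adamts1, Itga6, Itga8, Lamb1-1, Mmp17 and a probe of Itgbl1. Negative were Adamts5, Adamts10, Adamts15, Adamts19, Col4a3bp, a probe of Col4a5, Col5a1, Col7a1, Col13a1, Col17a1, Itgam, Itgb7, Lama4 and Lamc3. Lamb1-1, for example, read 167 and 181 in WNL, 116 and 100 in WTL, 100 and 100 in KNL, and 172 and 173 in KTL, so that it was lower after training in wild type and higher in the knockout. Its interaction was 1.48 (adjusted p = 0.00154). Leaving out KTL 2 left none of the 20 calls, and leaving out KNL 2 left Col7a1.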

How the data were processed

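Total RNA of pooled left hippocampi was amplified, labeled with Cy5 and hybridized by the authors to the Mouse Whole Genome OneArray, 1 color and 2 arrays per group, and spot readings were averaged, floored at 100 and quantile normalized according to the methods. The deposited values are intensities on a linear scale that still reached down to 7.23, with medians of 481 to 482 per array, and 13334 probes blank on all arrays were left out; the filter behind the blanks is not given in the sources used here. No sample column stayed unmapped. A floor of 100, quantile normalization and log2 were applied, and a model with 1 coefficient per group was fitted to all 8 arrays (limma 3.58.1, R 4.3.3, 4 residual and 2.45 prior degrees of freedom). The number of arrays limits the precision. SAM, the test of the methods, was an alternative, since 4 arrays allow 6 splits. Other alternatives changed the floor, normalization, filter, test, thresholds, arrays, probes per gene and a block for replicate number. The script was tested on simulated data. Members and lists were chosen with earlier results of these data known. In each class, the text names the 3 called probes with the largest change, the brightest 2 and genes whose probes differ in call, with up to 4 called probes of each list; genes outside this rule are marked or were named for their call in another comparison. Gene symbols come from the platform annotation, which can be old. Promoters of 56 of the 73 genes were found in a RefSeq table of GRCm38.p6. Right hippocampi and quantitative RT-PCR were not used here.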

Additional observations from a re-analysis of the deposited data

Results flagged for a closer look

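For 20 matrix and integrin probes the effect of training in the knockout differed from that in the wild type by the interaction test (limma, adjusted p under 0.01 and over 2-fold), which is what marked them for a closer look. Values are the log2 change in KTL vs KNL minus that in WTL vs WNL. It was 1.76 for Adamts1, 1.62 for a probe of Itga6, 1.56 for Itga8, 1.48 for Lamb1-1, 1.21 for Mmp17 and 1.05 for a probe of Itgbl1, all of which had a higher value after training in the knockout than their wild-type change would give. Among proteases it was -1.6 for Adamts5, -1.43 for Adamts15, -1.29 for Adamts10 and -1.2 for Adamts19. Among collagens it was -1.45 for Col17a1, -1.39 for Col7a1, -1.31 for Col13a1, -1.29 for the dimmer probe of Col4a5 and -1.12 for Col5a1. Among laminins it was -1.84 for Lamc3 and -1.23 for Lama4, and among integrins -1.29 for Itgb7 and -1.04 for Itgam. Col4a3bp, matched by name only, had -1.32. Of all probes 21.8% passed this test, so the members' share of 20 of 81 is near the background. The test shares arrays with KNL vs WNL and KTL vs KNL, so these are not separate findings from the calls there. With the replicate number as a block, 8 of the 20 were called. The further probes of Adamts1, Itga6 and Itgbl1 did not pass, with -0.15 (adjusted p = 0.45), -0.04 (adjusted p = 0.836) and -0.53 (adjusted p = 0.0956).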

How the results depend on the processing

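Each group had 2 arrays, and counts moved with the threshold and with single arrays. In KNL vs WNL, where limma called 10 members, SAM called 16, a fit to the 4 arrays compared 4, an adjusted p under 0.05 alone 45 and a test against a 2-fold change 1, and leaving out 1 array gave 1 to 13. In KTL vs KNL (14 members) the adjusted p alone gave 46, the test against 2-fold 0 and leaving out 1 array 1 to 16. For the interaction (20 members) these were 40, 0 and 0 to 16. In KTL vs WTL (0 members) a floor of 50 and no floor each gave 2, and in KTL vs WNL (0 members) each gave 2 as well. Leaving out 1 array gave 0 in KTL vs WTL, WTL vs WNL and KTL vs WNL. The cause of these moves was not tested. Without WNL 2, KNL 1 or KNL 2, the count in KNL vs WNL was 3, 3 and 1, and without either KTL array 6. Without KNL 1, KNL 2, KTL 1 or KTL 2, the count in KTL vs KNL was 5, 1, 2 and 3. For the interaction it was 12 without WNL 1, 5 without WNL 2, 7 without WTL 2, 7 without KNL 1, 1 without KNL 2, 2 without KTL 1 and 0 without KTL 2. Under cyclic loess the members called were 3 up and 6 down in KNL vs WNL, where the median of all probes was 0.09, and the further Adamts1 probe, which lies near the floor, turned to -0.13 in KNL vs WNL and 0.056 in KTL vs KNL. Deviations of same-numbered arrays from their group means correlated at -0.249 to 0.432 between groups, highest for WTL with KNL. With 2 arrays per group, this does not settle if replicate numbers mark pairs. With the replicate number as a block, 9 members were called in KNL vs WNL, 14 in KTL vs KNL, 8 in the interaction and 0 elsewhere. The other settings, namely no further normalization, probes with a mean over 200, an intensity trend, robust empirical Bayes and the brightest probe per gene, stayed within 1.5 times of each count.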
